A study of Mus musculus with 10 samples.

Results

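The mitochondrial respiratory chain was followed in mouse neurons through the probe sets of its nuclear-encoded subunits on Affymetrix arrays. Members were taken by gene symbol: names starting with Nduf (complex I), Sdha to Sdhd (complex II, with their assembly factors), Uqcr (complex III), Cox4 to Cox8 (complex IV) or Atp5 (complex V). This gave 77 probe sets for 68 genes among the 9977 probe sets present on both array designs, with 32 probe sets for complex I, 6 for complex II, 7 for complex III, 15 for complex IV and 17 for complex V. Of these, 70 probe sets for 64 genes passed the filter on low signals. No measured value entered the choice by name, although the list was drawn up with earlier results of these data known.

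The cells were primary cortical cultures from Swiss albino mouse foetuses of gestation day 15 to 16. On day 5 in culture they received 1 µM lactacystin, a natural product that blocks the proteasome, in serum-free medium, and RNA was taken at 24 h or 48 h. Control cultures of the same 2 times carried no agent per the labels, which do not say whether they received the DMSO in which lactacystin was dissolved. Each time had 2 control and 3 lactacystin arrays, and 4 of the 10 arrays were of the older U74A design, the other 6 of U74Av2. Nothing in the labels states that the replicates came from different cultures. The p-values therefore reflect variation among these arrays only, and that variation could be technical.

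The respiratory chain passes electrons from NADH (through complex I) and succinate (through complex II) to ubiquinone, then through complex III and cytochrome c to oxygen at complex IV. The protons pumped on the way drive ATP synthesis by complex V, on which neurons rely for the ion pumps behind their electrical activity. Most subunits are encoded in the nucleus, and some subunits of complex IV exist as isoforms known from testis or striated muscle. The proteins encoded in mitochondrial DNA are not analysed here.

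Cox6b2, the isoform of complex IV subunit 6b known from testis, carried the largest change among the members. Its promoter and that of its widely expressed paralogue Cox6b1 are shown because the paralogues behaved differently. Each sequence holds the 200 bases before the annotated transcription start in RefSeq on GRCm38.p6, read on the minus strand, at chr7:4753095-4753294 for Cox6b2 and chr7:30626115-30626314 for Cox6b1. Capitals mark, on either strand, the ETS motif CCGGAAG, the GC box GGGCGG and the CCAAT box CCAAT.

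Cox6b2: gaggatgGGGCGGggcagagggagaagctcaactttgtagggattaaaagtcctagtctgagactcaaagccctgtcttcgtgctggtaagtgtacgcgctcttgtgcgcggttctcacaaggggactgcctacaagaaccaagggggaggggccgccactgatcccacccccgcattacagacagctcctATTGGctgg
Cox6b1: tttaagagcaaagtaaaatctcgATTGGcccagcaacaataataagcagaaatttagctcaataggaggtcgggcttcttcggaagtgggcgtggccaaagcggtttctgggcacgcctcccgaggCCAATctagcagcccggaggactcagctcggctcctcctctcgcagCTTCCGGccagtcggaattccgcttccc

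The Cox6b2 stretch held a GC box and a CCAAT box, and the Cox6b1 stretch an ETS motif and 2 CCAAT boxes. Over the 250 bases before the start, the ETS motif was found in 13 of the 55 member genes matched in RefSeq (23.6%), against 7.83% of all 27025 genes in that table. These 13 included Cox6b1, Cox6a1, Uqcrh, Atp5j, Sdhd and Ndufs3. The NRF1 palindrome, which is GCGCA joined to its reverse complement, was found in 4 of 55 (7.27%), in Atp5g2, Atp5k, Cox6a1 and Ndufaf4, against 0.877% of all genes. GC boxes were found in 24 of 55 (43.6%, against 35.4%) and CCAAT boxes also in 24 of 55 (43.6%, against 37.5%). A matching string describes the sequence and is not evidence of binding. Both strands were searched, and a base could count in more than a single motif.

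Signals given for single arrays are deposited intensities scaled to a trimmed mean of 500 on each array. Changes are in log2(signal + 32), adjusted for array design, with standard errors (SE), and adjusted p-values are from limma with Benjamini-Hochberg adjustment over all 6984 probe sets tested, called at 0.05. Controls of the same time and design as a lactacystin array are used for differences of single arrays, so both U74Av2 lactacystin arrays of a time share 1 control.

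At 24 h lactacystin left most respiratory chain transcripts within a narrow range of the controls, with 3 members higher and 2 lower. Ndufa13, Ndufa5 and Uqcrq rose and Ndufa1 and Atp5g1 fell, all by less than 2-fold. This was 5 of 70 members (7.14%), while over all 6984 probe sets 14.8% were called, 8.15% higher and 6.63% lower. The count of members rested on the arrays of that time: it was 1 or 0 without control replicate 1 or 2 of 24 h, and 2 with any of the 3 lactacystin arrays of 24 h left out. Without lactacystin replicate 1 none of the 5 was called, and the 2 were Atp5e and Cox7a2. Without replicate 2 they were Ndufa1 and Uqcrq, and without replicate 3 Ndufa13 and Cox8c. The median change was 0.02 log2 over the members and -0.03 over all probe sets tested, and 66 of the 70 members lay within 0.5 log2 of no change. The 95% interval of the change lay within 2-fold in either direction for 67 of the 70 members, the exceptions being Ndufa1, Atp5g1 and Ndufb3, and for 86.6% of all probe sets. Since these are bulk cultures, fewer cells of a type and less RNA per cell cannot be told apart. Neuron markers were lower at the same time: 4 of 9 tested fell and none rose, with summed signals of 28470 to 37521 in controls and 19723 to 25049 under lactacystin. Leaving out control replicate 2 or lactacystin replicate 3 of 24 h left 2 of these markers called. Of the astrocyte and radial glia markers 2 of 7 fell and 1 rose (median -0.23 log2). For microglia and macrophages 1 of 7 rose, and for fibroblast, mural and meningeal cells 1 of 6. None of these 2 lists had a fall, and their medians were -0.09 and -0.37. Their part in the members' values was not tested.

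At 48 h the members called were both probe sets of Cox6b2, each higher. This was 2 of 70 (2.86%), against 10.3% of all probe sets, of which 6.76% were higher and 3.57% lower. Without lactacystin replicate 1 of 24 h 4 members were called, the 2 of Cox6b2 with Atp5g2 and Uqcrh. The other 68 members ran from -0.26 to 0.40 log2, and the 95% interval of each of those 68 lay within 2-fold in either direction, as it did for 87.2% of all probe sets. The median change was 0.07 log2 over the members and 0.04 over all probe sets tested. Under scaling to a common median, the whole set of probe sets moved to -0.11 log2 at 48 h and the members to -0.10, so the sign of these medians is set by the scaling.

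**Figure D1:**
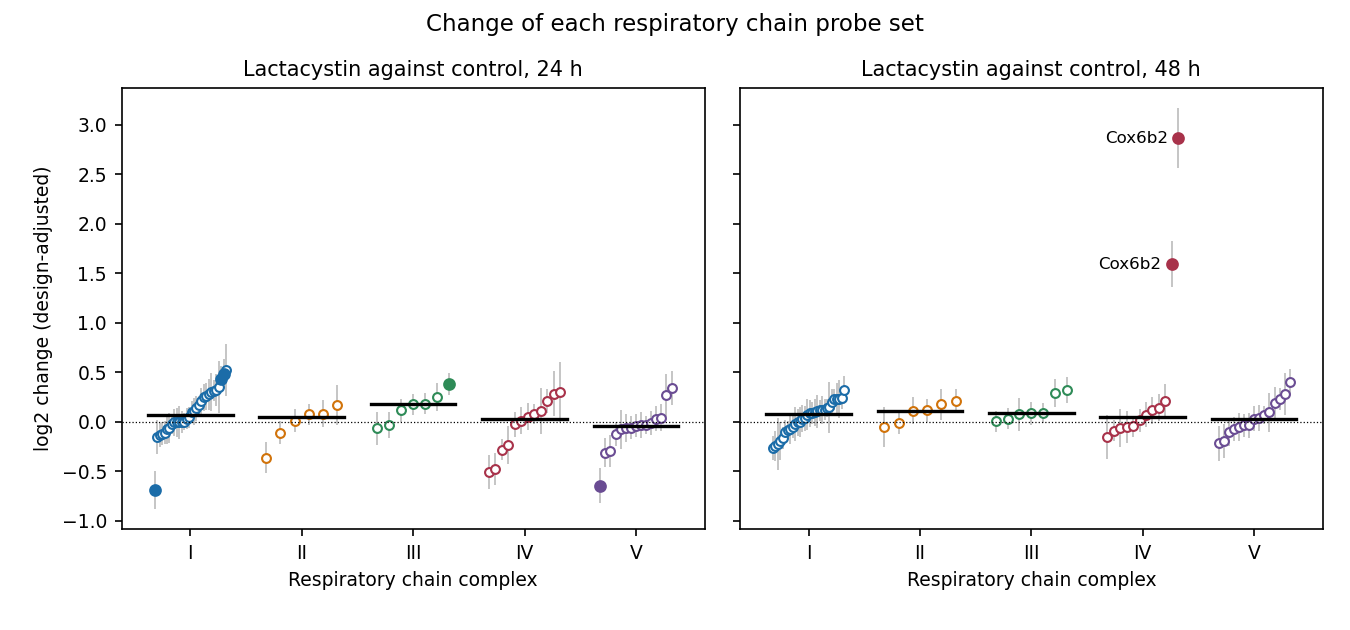
Design-adjusted log2 change with SE for each of the 70 tested probe sets, ordered by size within complexes I to V, at 24 h (left) and 48 h (right); filled points were called at an adjusted p under 0.05, and black bars are medians of a complex. The 2 Cox6b2 probe sets at 48 h, at 2.86 and 1.59 log2, stand above all others, which lie between -0.26 and 0.40 at that time.

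By complex, the medians at 24 h were 0.07 log2 for complex I, 0.04 for II, 0.18 for III, 0.03 for IV and -0.04 for V. At 48 h they were 0.08, 0.11, 0.09, 0.04 and 0.03 in the same order. The arrays did not share these values evenly at 24 h. In lactacystin replicate 1, the U74A array, 28 of 30 complex I members and 7 of 7 complex III members lay above the control, with medians of 0.29 and 0.38. In replicates 2 and 3, on U74Av2, 14 of 30 complex I members lay above the control in each, with medians of -0.03 and -0.02, and complex III had medians of 0.01 and 0.07. Complex V differed in the same way, with a median of 0.06 and 10 of 15 members above the control in replicate 1, and medians of -0.16 and -0.10 with 2 and 3 of 15 above in the others. Over all probe sets tested, these arrays had medians of -0.05, -0.03 and -0.03. The members' median in that U74A array (0.22) therefore lay apart from those in the U74Av2 arrays (-0.06 and -0.07). That array is the only lactacystin array of its design at 24 h, and its control is the only U74A control of that time. The parts of the array, its control and the design therefore cannot be told apart. At 48 h the 3 arrays had member medians of 0.07, 0.05 and 0.01.

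**Figure D2:**
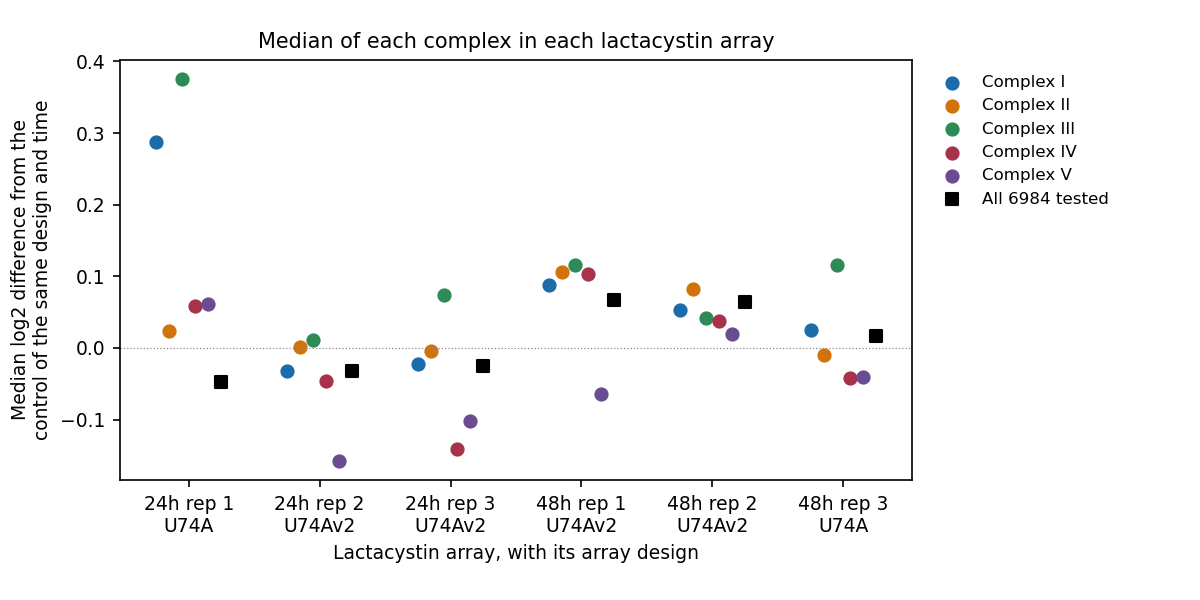
Median log2 difference of each complex from the control of the same time and design, for each of the 6 lactacystin arrays (coloured points), with all 6984 tested probe sets as black squares. At 24 h complexes I and III sit at 0.29 and 0.38 in replicate 1 and between -0.03 and 0.07 in the other arrays.

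Members whose 3 lactacystin arrays all lay on the same side of their controls were counted without a fit. At 24 h 23 of 70 members were above in all 3 and 11 below, while 27% and 33.3% of all probe sets were. Complex I had 13 of 30 above and 2 below, complex III 4 of 7 above and 0 below, complex IV 4 of 12 above and 4 below, and complex V 1 of 15 above and 4 below. At 48 h 24 members were above and 11 below, against 31.8% and 21.9% of all probe sets.

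**Figure D3:**
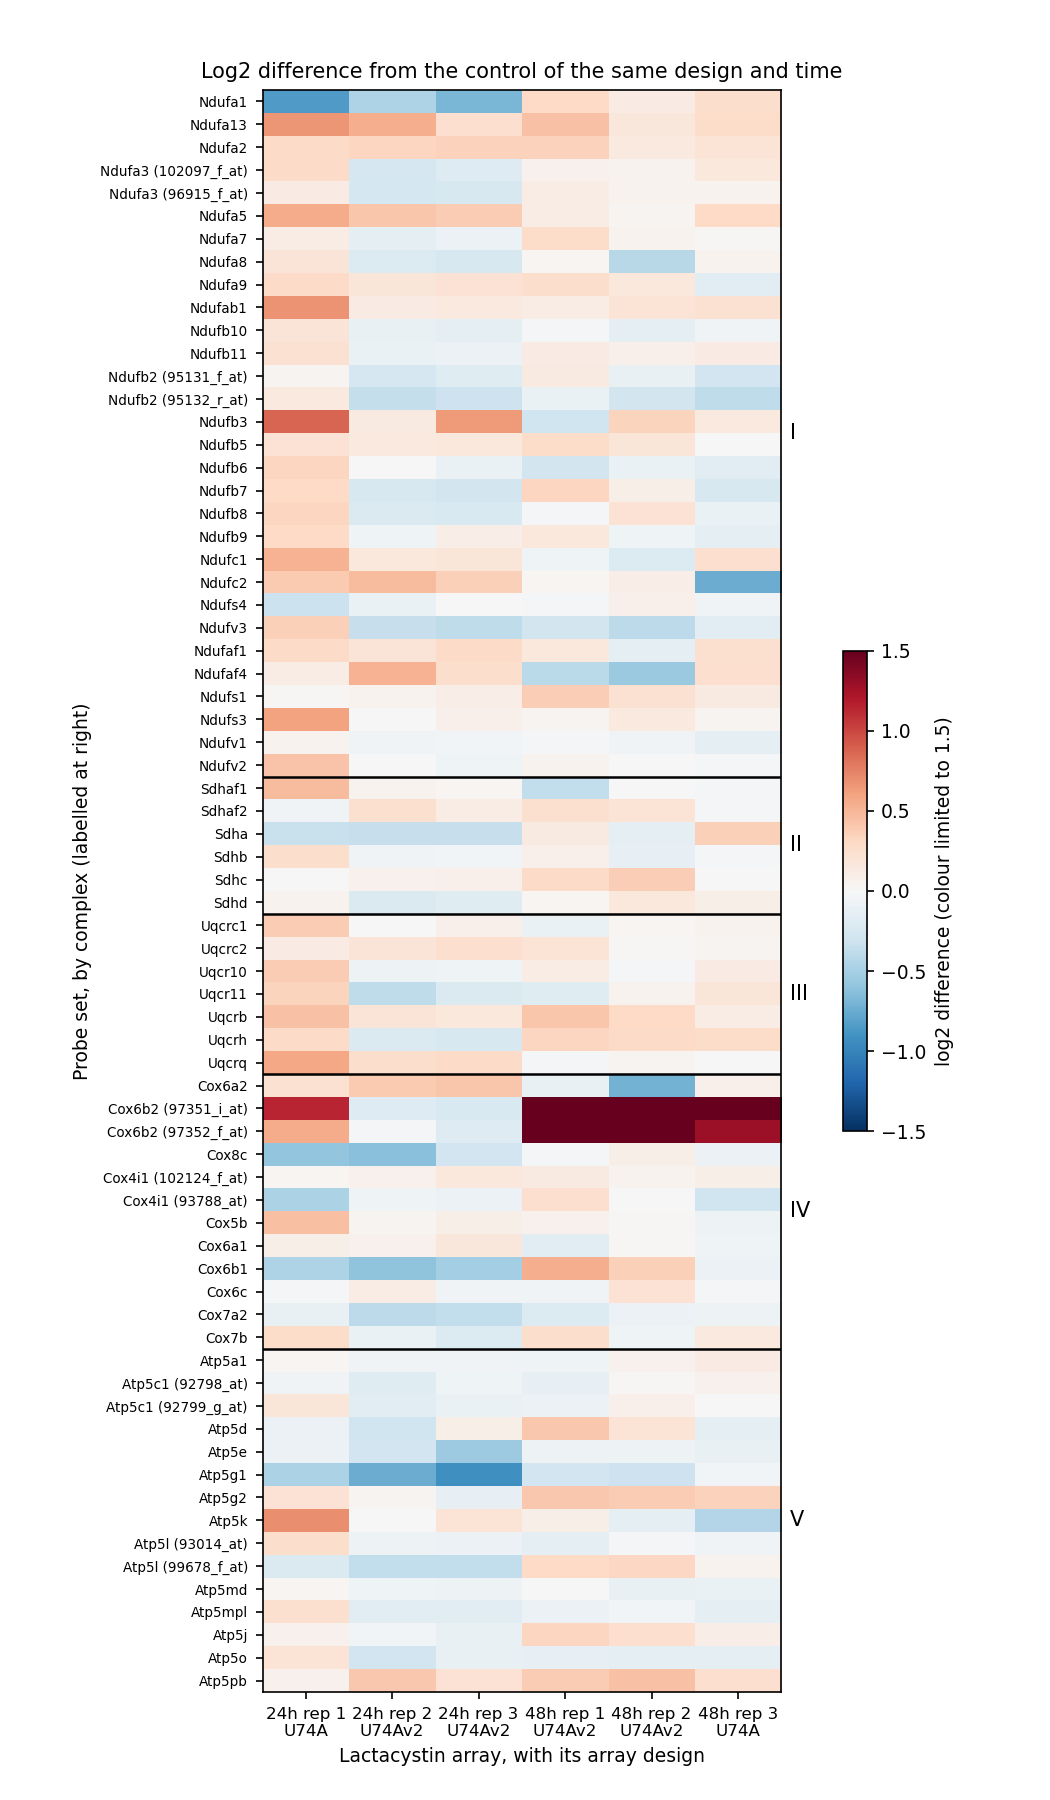
Log2 difference of each of the 70 tested members (rows, grouped by complex) from the control of the same time and design in the 6 lactacystin arrays (columns); red is higher and blue lower, with the colour limited at 1.5. The Cox6b2 rows are dark red in the 3 columns of 48 h, Ndufa1 is blue in the 3 columns of 24 h and pale red in those of 48 h, and the first column is redder than its neighbours in complexes I and III.

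Complex I, the NADH dehydrogenase, has core subunits that carry out electron transfer and accessory subunits that stabilise and assemble it. Ndufa1, a small accessory subunit needed for its assembly, had signals of 115.5 and 69.4 in the 24 h controls and 49.6, 41.5 and 30.8 under lactacystin. All 3 lactacystin arrays lay below both controls. It fell by 0.69 ± 0.19 log2 (SE, adjusted p = 0.0318), and the call was lost without control replicate 1 or 2 or lactacystin replicate 1 or 3 of 24 h. At 48 h the signals were 106.2 and 72.9 in controls and 97.2, 82.5 and 133.7 under lactacystin, which overlapped (0.23 ± 0.19, adjusted p = 0.518). Each lactacystin array was then above the control of its own design. A second Ndufa1 probe set stayed under the filter in all groups, with signals of 5.22 to 29.1.

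Ndufa13, an accessory subunit also known as the cell death regulator GRIM-19, read 956.8 and 1090 in the 24 h controls and 1531, 1606 and 1300 under lactacystin. The groups did not overlap, and it rose by 0.48 ± 0.14 log2 (adjusted p = 0.0444). At 48 h it stood at 0.32 ± 0.14 (adjusted p = 0.197), with controls of 977.3 and 1223 and lactacystin arrays of 1674, 1384 and 1190. These overlapped, although each lactacystin array was above the control of its own design. Ndufa5, an accessory subunit of the arm that faces the matrix, read 3214 and 3144 in the 24 h controls and 4752, 4192 and 4110 under lactacystin. All 3 lactacystin arrays were above both controls, a rise of 0.43 ± 0.12 (adjusted p = 0.0374). Leaving out either 24 h control ended both calls, with adjusted p = 0.158 and 0.245 for Ndufa13. So did leaving out lactacystin replicate 1 or 2 of 24 h, for Ndufa5 also replicate 3, and for Ndufa13 also either 48 h control (adjusted p = 0.0551 and 0.0559).

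Ndufb3, a membrane-arm accessory subunit, had the largest positive change of complex I at 24 h, 0.52 ± 0.26, without passing the threshold (adjusted p = 0.206). Its lactacystin signals were spread from 1437 to 2694, against 1461 and 1306 in controls. The core subunits Ndufs1, Ndufs3, Ndufv1 and Ndufv2 ranged from 0.00 to 0.26 at 24 h and from -0.08 to 0.23 at 48 h, none past the threshold. The assembly factors Ndufaf1 and Ndufaf4 stood at 0.25 ± 0.14 and 0.30 ± 0.19 at 24 h and at 0.12 ± 0.14 and -0.20 ± 0.19 at 48 h. At 48 h none of the 30 complex I probe sets was called. The lowest was one probe set of Ndufb2, an accessory subunit, at -0.26 ± 0.12 (adjusted p = 0.194), with its other probe set at -0.10 ± 0.12.

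Complex II, succinate dehydrogenase, also belongs to the citrate cycle and has no subunit from mitochondrial DNA. None of its 6 probe sets was called at either time. Sdha, the flavoprotein that oxidises succinate, read 357.2 and 256.1 in the 24 h controls and 276.3, 194.1 and 194.3 under lactacystin. These overlapped, with a change of -0.36 ± 0.15 (adjusted p = 0.141), although each array was below the control of its own design. Sdhb, the iron-sulphur subunit, stood at 0.08 ± 0.11 at 24 h and -0.02 ± 0.11 at 48 h. The membrane anchors Sdhc and Sdhd stood at 0.01 ± 0.12 and -0.11 ± 0.12 at 24 h, and at 0.21 ± 0.12 and 0.12 ± 0.12 at 48 h. The factors Sdhaf1 and Sdhaf2, which insert the iron-sulphur clusters and the flavin, stood at 0.17 ± 0.20 and 0.08 ± 0.14 at 24 h and at -0.06 ± 0.20 and 0.11 ± 0.14 at 48 h.

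Complex III, the cytochrome bc1 complex, had 1 of 7 probe sets called at 24 h and none at 48 h. Uqcrq, a small subunit next to cytochrome b, read 6186 and 7774 in the 24 h controls and 9257, 9323 and 9500 under lactacystin. The groups did not overlap, and it rose by 0.38 ± 0.11 log2 (adjusted p = 0.0378). At 48 h the groups overlapped, at 6219 and 8533 against 8378, 8783 and 6246 (0.03 ± 0.11). The 24 h call was lost without either 24 h control, lactacystin replicate 1 or 3 of 24 h, or lactacystin replicate 1 of 48 h (adjusted p = 0.0536 to 0.207).

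The core proteins Uqcrc1 and Uqcrc2 both stood at 0.18 at 24 h, with SE of 0.11 and 0.10, and at 0.01 and 0.09 at 48 h. Uqcrb, which lies near the ubiquinone site, stood at 0.25 ± 0.14 and 0.29 ± 0.14. Uqcrh, the hinge protein that holds cytochrome c1, read 2634 and 3416 in the 48 h controls and 4292, 4190 and 3202 under lactacystin. Its arrays overlapped, with a change of 0.32 ± 0.13 (adjusted p = 0.152), although each lactacystin array was above the control of its own design.

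Complex IV, cytochrome c oxidase, had no call among 12 probe sets at 24 h and 2 at 48 h, both of Cox6b2. In the first of these, whose name ends in _i_at, the 48 h signals were 160.7 and 105.0 in controls and 778.7, 1021 and 1355 under lactacystin. Each lactacystin array was far above both controls, with means of 132.8 ± 39.4 (SD, n = 2) and 1052 ± 289 (SD, n = 3). The rise was 2.86 ± 0.30 log2, or 7.28-fold (adjusted p = 0.000324), which ranked 3 of 6984 probe sets from the top.

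The second Cox6b2 probe set, whose name ends in _f_at, read 484.9 and 279.0 in the 48 h controls and 946.5, 1019 and 1228 under lactacystin. The groups did not overlap here either, a rise of 1.59 ± 0.23 log2, or 3.01-fold (adjusted p = 0.00187). Both calls were kept with each of the 10 arrays left out in turn. Names of this form mark probe sets whose probes did not meet every selection rule of the manufacturer, and those ending in _f_at can match several related sequences, so the measured sequence is less certain than the signal.

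At 24 h Cox6b2 split by array. In the first probe set the controls read 124.1 (U74A) and 69.4 (U74Av2), while lactacystin replicate 1 (U74A) read 312.0 and replicates 2 and 3 (U74Av2) 56.8 and 54.8. Only the U74A array was above its control, and the change was 0.30 ± 0.30 (adjusted p = 0.554). The second probe set showed the same order, with 453.1 and 226.8 in controls and 682.3, 222.3 and 193.8 under lactacystin (0.11 ± 0.23, adjusted p = 0.799). Cox6b1, the widely expressed gene of the same subunit, was not called at either time. Its single probe set has a name ending in _r_at, to which the caution on selection rules also applies. It read 219.5 and 203.9 in the 24 h controls and 150.9, 122.8 and 133.4 under lactacystin, with no overlap, a change of -0.51 ± 0.17 (adjusted p = 0.0656). It stood at 0.21 ± 0.17 (adjusted p = 0.505) at 48 h.

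A further Cox6b2 probe set, present on U74Av2 alone and also with a name ending in _r_at, was not called. It read 33.0 in the 48 h control and 60.7 and 46.2 under lactacystin, a change of 0.39 ± 0.42 in a fit of those 6 arrays (adjusted p = 0.63). In the RefSeq gene table the neighbours of Cox6b2 are Kmt5c, a histone methyltransferase, and Il11, a cytokine. Kmt5c fell at 24 h (-0.55 ± 0.17, adjusted p = 0.0485) and stood at 0.30 ± 0.17 at 48 h (adjusted p = 0.305), and Il11 was under the filter. Some markers of other cells were called higher at 48 h beside Cox6b2. At that time 6.76% of all probe sets were called higher and 3.57% lower. Of the oligodendrocyte, endothelial and erythroid markers 1, 2 and 1 were tested, and none was called. For astrocytes and radial glia 3 of 7 rose (summed signals 12314 to 18446 in controls, 15506 to 18893 under lactacystin), for microglia and macrophages 3 of 7 (611.4 to 1315, and 1053 to 1773). For fibroblast, mural and meningeal cells 2 of 6 rose (1174 to 1247, and 2047 to 3804), while 3 of 9 neuron markers fell. Without control replicate 2 of 48 h these counts were 1, 0, 2 and 0, without control replicate 1 the microglial count was 1, and without lactacystin replicate 2 of 48 h it was 1. Without lactacystin replicate 1 or 3 it was 2. Of the defining markers, S100b, Aif1, C1qb, Itgam, Ptprc and Col1a2 were under the filter. Their part in the Cox6b2 values was not tested.

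**Figure D4:**
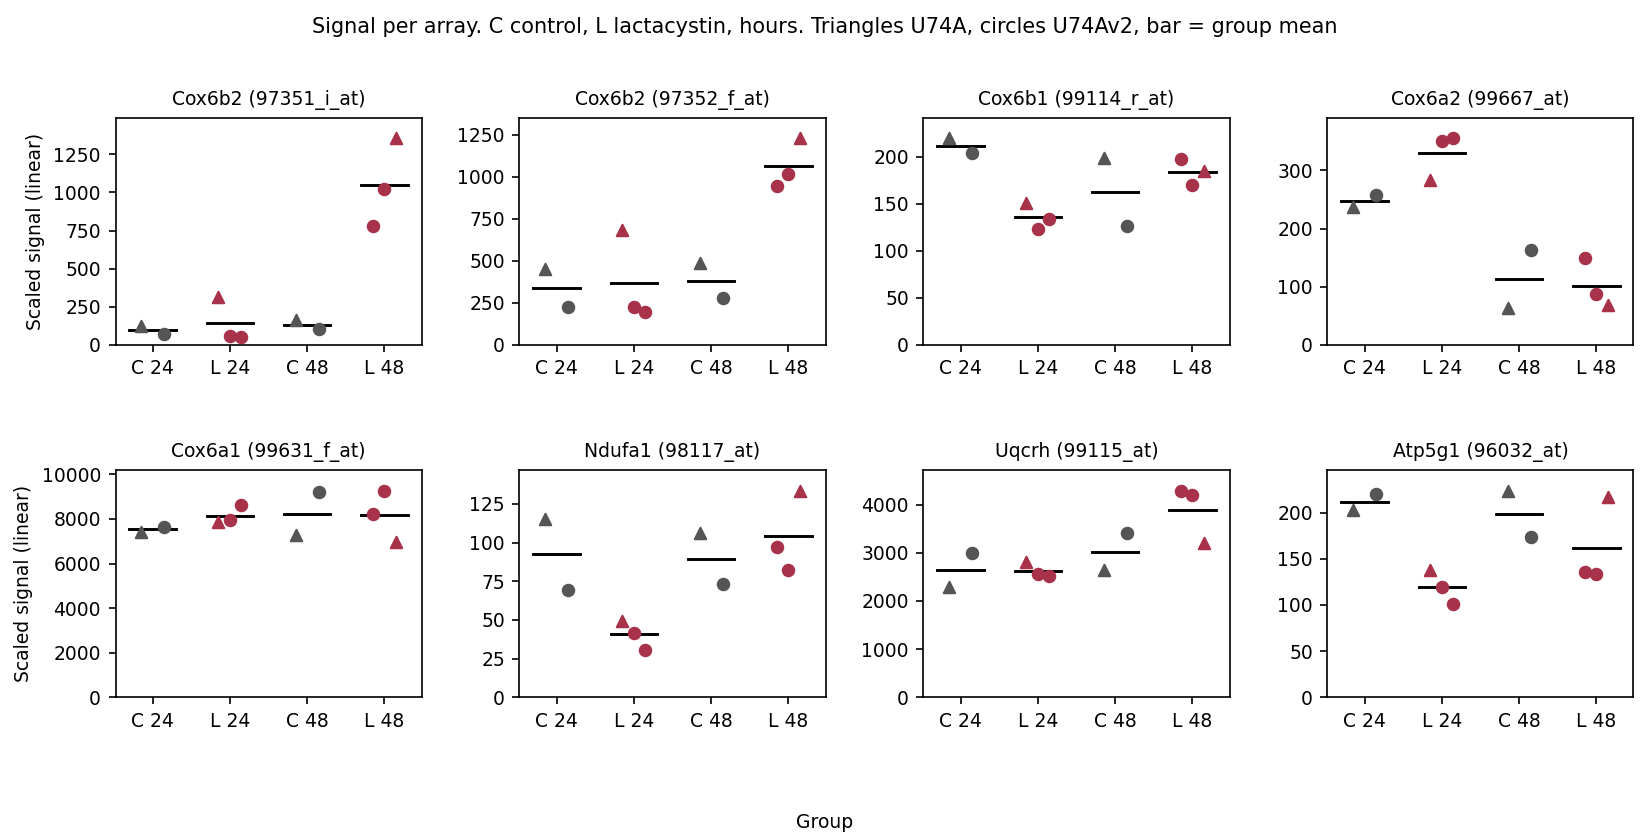
Scaled signal of 8 probe sets in each of the 10 arrays, by group (C control, L lactacystin, 24 or 48 h), with triangles for U74A, circles for U74Av2 and a bar at the group mean; each panel has its own axis from 0. Cox6b2 in its first panel reads 778.7 to 1355 in the lactacystin arrays of 48 h and 54.8 to 312.0 in all others, while Cox6a2 is lower at 48 h in both controls and treated cultures.

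Other complex IV isoforms gave no call between treated and control cultures. Cox8c, the testis isoform of subunit 8, read 766.0 and 677.2 in the 24 h controls and 496.0, 427.6 and 550.8 under lactacystin, without overlap, and stood at -0.48 ± 0.16 (adjusted p = 0.0661). Another Cox8c probe set, on U74Av2 alone, was under the filter, with signals of 3.62 to 7.33 over both times. Which of these signals reflects Cox8c was not tested. Cox6a2, the striated muscle isoform of subunit 6a, stood at 0.28 ± 0.23 at 24 h and -0.16 ± 0.23 at 48 h. Cox7a1, the muscle isoform of subunit 7a, was under the filter. The widely expressed subunits Cox4i1, Cox5b, Cox6a1, Cox6c, Cox7a2 and Cox7b ranged from -0.28 to 0.21 at 24 h and from -0.09 to 0.14 at 48 h.

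Complex V, the ATP synthase, had 1 of 15 probe sets called at 24 h and none at 48 h. Atp5g1, a gene for the c subunit of the rotor ring, read 202.4 and 220.5 in the 24 h controls and 137.3, 119.2 and 101.2 under lactacystin. All 3 lactacystin arrays lay below both controls, and it fell by 0.65 ± 0.18 log2 (adjusted p = 0.0326). The call was lost without control replicate 2 or any lactacystin array of 24 h. At 48 h it stood at -0.22 ± 0.18 (adjusted p = 0.508), with 223.8 and 173.4 in controls and 136.0, 133.3 and 216.8 under lactacystin. A second Atp5g1 probe set, on U74Av2 alone, read 116.2 in the 24 h control and 48.5 and 62.0 under lactacystin, a change of -0.77 ± 0.26 in the fit of the U74Av2 arrays that did not pass (adjusted p = 0.125).

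Atp5g2, another gene for the same c subunit, stood at 0.04 ± 0.14 at 24 h and 0.40 ± 0.14 at 48 h (adjusted p = 0.0843). Its 48 h signals were 826.2 and 713.8 in controls and 955.0, 942.3 and 1059 under lactacystin, without overlap. Its second probe set was the member just outside the filter, with a mean signal (taken on the log2 scale) of 51.1 over the 10 arrays, and Ndufc2 of complex I was the member just inside, with 54.9. Atp5k, a membrane subunit, stood at 0.34 ± 0.17 at 24 h and -0.19 ± 0.17 at 48 h, and Atp5pb of the peripheral stalk at 0.26 ± 0.21 and 0.28 ± 0.21. Atp5a1, the alpha subunit of the F1 head where ATP is made, stood at -0.03 ± 0.09 and 0.07 ± 0.09.

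Whether the effect of lactacystin differed between the times was tested as a difference of differences. The first probe set of Cox6b2 was the 1 member of 70 called (1.43%), against 1.29% of all probe sets, 0.444% higher and 0.845% lower. The difference was 2.57 ± 0.43 log2 (adjusted p = 0.0152), the largest positive one of the 6984, and the call was lost without control replicate 1 or 2 of 24 h or control replicate 1 of 48 h (adjusted p = 0.0576, 0.126 and 0.108). The second Cox6b2 probe set had 1.48 ± 0.33 and just missed the threshold (adjusted p = 0.0542). Without lactacystin replicate 1 of 24 h 3 members were called, both Cox6b2 probe sets and Uqcrh, and without lactacystin replicate 3 of 48 h 2 were. Ndufa1 had 0.92 ± 0.27 (adjusted p = 0.12).

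From 24 h to 48 h under lactacystin 7 members rose and 1 fell. This was 8 of 70 (11.4%), against 11.5% of all probe sets, 6.19% higher and 5.31% lower. Some markers of other cells were called higher beside them: 4 of 7 for astrocytes and radial glia (median 0.86 log2), 2 of 6 for fibroblast, mural and meningeal cells and 1 of 7 for microglia and macrophages rose, as did 2 of 9 neuron markers, and none of these lists had a fall. Without lactacystin replicate 2 or 3 of 24 h the fibroblast and microglial counts were 0 and the neuron count 1. With single arrays left out the astrocyte count was 3 to 5, the fibroblast count 0 to 4 and the microglial count 0 to 2. Their part in the members' values was not tested.

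Cox6b2 rose by 2.93 ± 0.27 and 1.66 ± 0.21 log2 (adjusted p = 9.25e-05 and 0.000522), and the first value was the largest rise of the 6984. Ndufa1 rose by 0.90 ± 0.17 (adjusted p = 0.00618), from 30.8 to 49.6 at 24 h to 82.5 to 133.7 at 48 h without overlap. Its call was lost without the design covariate and on U74Av2 alone (limma, adjusted p = 0.107 and 0.0571). These 24 h signals lay under the filter limit of 51.4. Uqcrh rose by 0.55 ± 0.12 (adjusted p = 0.0117), from 2522 to 2804 at 24 h to 3202 to 4292 at 48 h.

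Sdha rose by 0.50 ± 0.14, Atp5j of the peripheral stalk by 0.38 ± 0.10, and Cox7a2, the widely expressed form of subunit 7a, by 0.38 ± 0.10, with adjusted p = 0.0374, 0.0336 and 0.027. The calls of these genes and of Uqcrh were lost without lactacystin replicate 2 or 3 of 24 h. Those of Atp5j and Cox7a2 were also lost without lactacystin replicate 1 or 2 of 48 h, and that of Sdha without replicate 1 or 3. Without replicate 2 or without replicate 3 of 24 h 4 members were called, and without replicate 1 of 24 h 15 were, 14 of them higher. Without lactacystin replicate 1 of 48 h 5 were called. Replicate 1 of 24 h is the U74A array in which complexes I and III stood higher.

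Cox6a2, the muscle isoform, fell by 1.47 ± 0.20 log2 over this time under lactacystin (adjusted p = 0.000963), a 2.77-fold change kept in each of the 10 leave-outs. Its signals were 283.2, 350.3 and 355.3 at 24 h and 148.8, 88.0 and 69.1 at 48 h. In the controls it read 237.4 and 258.5 at 24 h and 63.7 and 163.6 at 48 h, so the later arrays were lower there too, at -1.03 ± 0.25 (adjusted p = 0.548). Its difference of differences was -0.44 ± 0.32 (adjusted p = 0.535). In controls 0 members and 0 of all probe sets (0%, in either direction) were called by limma between the times, with 4 members and 390 probe sets at an unadjusted p under 0.05. The members' median there was 0.07 log2, and -0.03 over all probe sets.

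Across the 10 arrays, with the design effect removed and group means kept, most members correlated positively with the median member. That median ran from -0.10 to 0.12 log2, while the median residual SD of the members between arrays was 0.15. Pearson's r with the median of the others was highest for Ndufb11 (0.95), Uqcr10 (0.88) and Uqcrh (0.88), and lowest for Ndufs4 (-0.71), Ndufaf4 (-0.43) and Cox6a2 (-0.43). The 2 Cox6b2 probe sets had 0.74 and 0.78, so a high r does not mean a change of like size. These arrays share their scaling, no other probe sets were compared in this way, and the values are descriptive.

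Genes around the respiratory chain were counted from lists of mitochondrial functions. Over all probe sets tested, 8.15% were called higher and 6.63% lower at 24 h, and 6.76% and 3.57% at 48 h. Among mitochondrial chaperones and proteases 5 of 9 rose at 24 h and none fell (median 0.55 log2), led by the matrix chaperones Hspe1 (1.12 ± 0.10, adjusted p = 4.58e-05) and Hspa9 (0.98 ± 0.10, adjusted p = 0.000119). Of 54 mitochondrial ribosomal protein genes 15 rose and none fell (median 0.31), led by Mrps34 (0.82 ± 0.13, adjusted p = 0.00193) and Mrps28 (0.80 ± 0.16, adjusted p = 0.00696). All 14 genes of the proteasome 20S core, the target of lactacystin, rose (median 0.89). Without control replicate 2 of 24 h these counts were 2, 1 and 10, and without control replicate 1 the ribosomal count was 3. Without lactacystin replicate 1 or 3 it was 8 or 9, and without control replicate 1 or 2 Mrps28 lost its call. At 48 h 1 of 9, 0 of 54 and 0 of 14 rose, and none fell.

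In the other lists the counts were small numbers of genes. Of 10 electron carriers and exchangers 2 rose and 1 fell at 48 h, when 10.3% of all probe sets were called, and 0 were called at 24 h, when 14.8% were. The electron transfer flavoprotein genes Etfa and Etfb, which feed electrons from fatty acid oxidation into ubiquinone, rose by 0.84 ± 0.13 (adjusted p = 0.00233) and 0.69 ± 0.15 (adjusted p = 0.014), and Atpif1, an inhibitor of ATP synthase chosen here after its value was seen, fell by 0.34 ± 0.09 (adjusted p = 0.0352). The calls of Etfb and Atpif1 were lost without either 48 h control, and that of Atpif1 also without lactacystin replicate 2 or 3 of 24 h or replicate 2 of 48 h. Of 6 assembly genes, Surf1 for complex IV rose at 24 h (0.73 ± 0.13, adjusted p = 0.00345) and Uqcc1 for complex III fell at 48 h (-0.57 ± 0.15, adjusted p = 0.0333). Surf1 lost its call without control replicate 2 of 24 h, and Uqcc1 in 5 of the 10 leave-outs, among them either 48 h control.

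The remaining lists are small too, and whether their counts differ from the share of all 6984 probe sets was not tested. That share was 14.8% at 24 h (8.15% higher, 6.63% lower) and 10.3% at 48 h (6.76% higher, 3.57% lower). Of 14 pyruvate dehydrogenase and citrate cycle genes 2 fell at 24 h, Pdha1 among them (-0.53 ± 0.10, adjusted p = 0.00454). In the same list 1 rose at 48 h, Idh2 (0.69 ± 0.13, adjusted p = 0.00693). Without control replicate 2 of 24 h none of the 2 was called, and Idh2 was not without control replicate 1 of 48 h. Of 9 genes of mitochondrial gene expression and biogenesis 2 rose and 1 fell at 24 h, and 2 rose at 48 h. With any array of 24 h left out the 24 h counts were 1 and 0. At 48 h the count was 0 without either 48 h control or lactacystin replicate 1 of 48 h, and 1 in each other leave-out but that of lactacystin replicate 1 of 24 h. Ssbp1, which binds single-stranded mitochondrial DNA, rose by 0.88 ± 0.12 (adjusted p = 0.000748) at 24 h, and the mitochondrial RNA polymerase gene Polrmt fell by 0.58 ± 0.16 (adjusted p = 0.0323), a call lost when any of the 5 arrays of 24 h was left out. The other probe set of Polrmt, under the filter, stood at -0.11 at 24 h. Of 15 import genes Timm17a rose at 24 h (0.57 ± 0.13, adjusted p = 0.013) and Tomm70a fell at 48 h (-0.50 ± 0.11, adjusted p = 0.0164), its other probe set standing at -0.12. Timm17a lost its call without either control or lactacystin replicate 1 of 24 h, and Tomm70a without control replicate 2 of 48 h.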

How the data were processed

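RNA of 10 samples of cultured neurons was measured on Affymetrix U74A (4 arrays) and U74Av2 (6 arrays), from 7 µg of total RNA each per the labels' protocols. The deposited values are linear intensities, 1 summary signal per probe set, made with MAS5 per the submitters' processing notes; its version is not given in the sources used here. Probe sets were named from the platform annotation, and sequences and gene neighbours come from RefSeq tables of GRCm38.p6. The members and lists were chosen with earlier results of these data known.

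After removal of 66 control probe sets, a factor per array brought the 2% trimmed mean of the 9977 probe sets common to both designs to 500. Then 32 was added and log2 taken, which understates changes of low genes. The 2993 probe sets with the lowest mean log2 (30%, a scaled signal under 51.4) were left out. Of the member probe sets 7 were among them: those of Ndufa12, Cox7a1, Cox8a and Atp5j2, and 1 each of Ndufa1, Cox6c and Atp5g2. A further 8 matching probe sets carried several symbols and 23 were on U74Av2 alone, of which 11 passed the filter. None of those tested was called, and they are not members. Genes of the lists with several probe sets were represented by the brightest on average.

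Tests used limma 3.58.1 in R 4.3.3 (lmFit, eBayes with trend, two-sided) on the 4 groups of agent and time, with array design as a covariate and 5 residual degrees of freedom. The script was tested on simulated data. Named members were those called in any comparison, all of complex II, the 2 largest changes of each complex at each time and the extremes of likeness to the median member. In the lists, up to 2 called genes with the largest change at either time were named. Same-numbered arrays correlated at 0.23 to 0.67 within a design and at -0.62 to -0.55 between designs, after group means were removed. The design effect was not removed, and each control group held both designs. These correlations therefore cannot show whether the numbers pair samples, and the main fit did not pair them. Alternatives were other pseudocounts, scalings, filters and variance models, no design covariate, either design alone, the groups of a comparison alone, a replicate block, and each array left out. Added after the data were seen were 1 probe set per gene and a fit of all U74Av2 probe sets. The number of arrays limits the precision.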

Additional observations from a re-analysis of the deposited data

Results flagged for a closer look

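The effect of lactacystin on the first Cox6b2 probe set differed between the times, by 2.57 log2 more at 48 h than at 24 h (limma test of the difference, adjusted p = 0.0152). Its within-design differences were 1.14, -0.19 and -0.23 log2 at 24 h and 2.57, 2.94 and 2.85 at 48 h.

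Ndufa1 was lower than its control in 3 of 3 lactacystin arrays at 24 h and higher in 3 of 3 at 48 h. The difference between the times was 0.92 log2, which did not pass in the limma fit (adjusted p = 0.12).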

How the results depend on the processing

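Cox6b2 at 48 h kept its direction under every alternative run, at 2.58 to 3.19 log2 for the first probe set, called in each that has a test, and at 1.29 to 1.90 for the second, not called without the design covariate. At 24 h, against 5 members called, the count was 2 under a common median and without the variance trend (Ndufa1 and Atp5g1 in both), 2 with the replicate block (Ndufa13, and Cox8c, which is not among the 5), 1 without the filter, 3 with the filter of 50%, and 0 without the design covariate and on U74Av2 alone, over shared or all its probe sets. With single arrays left out the count was 0 to 5. At 48 h the count of 2 became 1 without the design covariate and with 1 probe set per gene, and 2 to 4 with arrays left out. The count of 1 on the difference between times became 2 with a pseudocount of 64, the filter of 50% or the replicate block, 0 without the filter, without the design covariate and with 1 probe set per gene, and 0 to 3 with arrays left out. The count of 8 over time under lactacystin became 5 under a common median, 2 without the design covariate and 4 to 15 with arrays left out. In controls the count stayed 0 in every setting run. The replicate block rests on shared numbers alone. Near-zero values that changed sign, none of them called, were these. At 24 h Sdhb read -0.048 on U74Av2 alone (-0.0445 over all its probe sets), and Sdhc -0.0075 without the design covariate. With arrays left out, Sdhaf1 ran from -0.116 to 0.263, Sdhb from -0.0298 to 0.156 and Sdhc from -0.118 to 0.125. At 48 h Sdhaf2 and Sdhd read -0.0383 and -0.0499 under a common median, Sdhaf2 and Sdhb -0.026 and 0.0367 under quantile normalization, Sdhb 0.0617 without the design covariate and Sdhaf1 0.0766 with the replicate block. With arrays left out, Atp5pb ran from -0.0261 to 0.55, Sdha from -0.0148 to 0.392, Sdhaf1 from -0.315 to 0.244, Sdhaf2 from -0.000665 to 0.208 and Sdhb from -0.0749 to 0.026. The causes were not tested. Signals near the filter limit the precision for Ndufa1 and Ndufc2.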
